A study of Homo sapiens with 3 samples.

Results

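The DNA replication machinery was followed in 3 RNA-seq libraries through 45 genes that encode the proteins that license origins, open the double helix, copy DNA and supply its nucleotides. The members were chosen by symbol for their known role in replication, not by a value in these files, out of 18856 genes listed in at least 1 library. Earlier results of these data were known when they were chosen. All 45 were listed in all 3 libraries. Low-input, equal-amplification (LIEA) sequencing on an Ion Torrent instrument was applied to HBE, a human bronchial epithelial cell line, and to A549, a line from a human lung adenocarcinoma. Smart-seq2, which amplifies the cDNA before library construction, was applied to HBE and sequenced on an Illumina instrument. Each library was made from 10 pg of polyA+ mRNA from cells for which the labels name no treatment, and each condition had 1 library, so no difference has a replicate check and no p-value is given.

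DNA replication is prepared in G1 phase, when the origin recognition complex, CDC6 and CDT1 load the MCM2 to MCM7 helicase onto origins. In S phase CDC45 and the GINS complex join the helicase, polymerase alpha with primase lays down primers, and polymerases epsilon and delta extend the strands on the sliding clamp PCNA, which replication factor C loads. Many of these genes are known as targets of the E2F transcription factors, which drive entry into S phase.

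The deposited levels are reads per kilobase of transcript per 1000000 mapped reads (rpkM), on a log2 scale. The totals worked out from the values were 4605855 reads for HBE LIEA, 4154060 for A549 LIEA and 9845150 for HBE Smart-seq2, so that 3 reads, taken as the floor, correspond to 0.651, 0.722 and 0.305 reads per 1000000. Ratios between libraries carry a 95% counting interval (Clopper-Pearson), which covers counting error only, since PCR reads are not independent molecules. A ratio was considered where a gene had a mean of at least 10 reads over the 2 libraries compared, and all 45 members passed in each comparison. The shares of all genes given beside the counts of members were not matched for level. Ratios of genes with few reads vary more by counting, and such genes are part of these shares. The 6 epithelial markers were listed in all 3 libraries. The 6 bronchial basal cell markers, KRT17 and KRT5 among them, summed to 1741 rpkM in HBE LIEA and 6472 in HBE Smart-seq2 against 9.07 in A549 LIEA, where KRT14 and NGFR were not listed. The 6 markers of A549, with AKR1B10 the highest there, summed to 11710 rpkM in A549 LIEA against 204 and 357 in the HBE libraries. Markers of alveolar type II cells, the cell type A549 is used as a model of, summed to only 16.8 rpkM in A549 LIEA, and SFTPA1 and SFTPC were not listed there. In HBE LIEA, A549 LIEA and HBE Smart-seq2 the sums were 1.08, 21.7 and 3.37 rpkM for 4 ciliated cell markers, 6.45, 4.02 and 1.56 for 6 fibroblast markers, and 42.1, 28.3 and 52.1 for 6 leukocyte markers, of which CD68 was the highest in each library. In RNA pooled from many cells, fewer cells in S phase and less RNA per cell cannot be told apart.

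The replication genes were lower in A549 LIEA than in HBE LIEA. Of the 45 members, 40 were lower by any amount, or 88.9% against 56.2% of all 12526 genes tested, and 5 were higher. At least 2-fold lower were 16 members, or 35.6% against 19.7% of all genes. None was at least 2-fold higher, against 17% of all genes. When ratios were centred on the median of all genes, or when the 100 genes with most reads were left out of the totals, GINS1, GINS4 and PCNA were at least 2-fold higher (3 members, against 19.6% and 18.9% of all genes). The members at least 2-fold lower were then 13 and 14, as MCM6 and ORC1 in both and POLD2 on centring were no longer among them, and 20 as TPM. The median log2 ratio of the members was -0.62, with quartiles of -1.18 and -0.29, and that of all genes was -0.16, with quartiles of -0.83 and 0.59. Relative to the median of all genes, the median of the members was thus lower by 0.46 on the log2 scale. Summed over the 45 genes, the level was 1921 rpkM in HBE LIEA, 1274 in A549 LIEA and 1875 in HBE Smart-seq2. The sum was 1.51-fold lower in A549 LIEA than in HBE LIEA (1.47 to 1.54, a normal interval from the counting error of the reads of each gene).

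**Figure D1:**
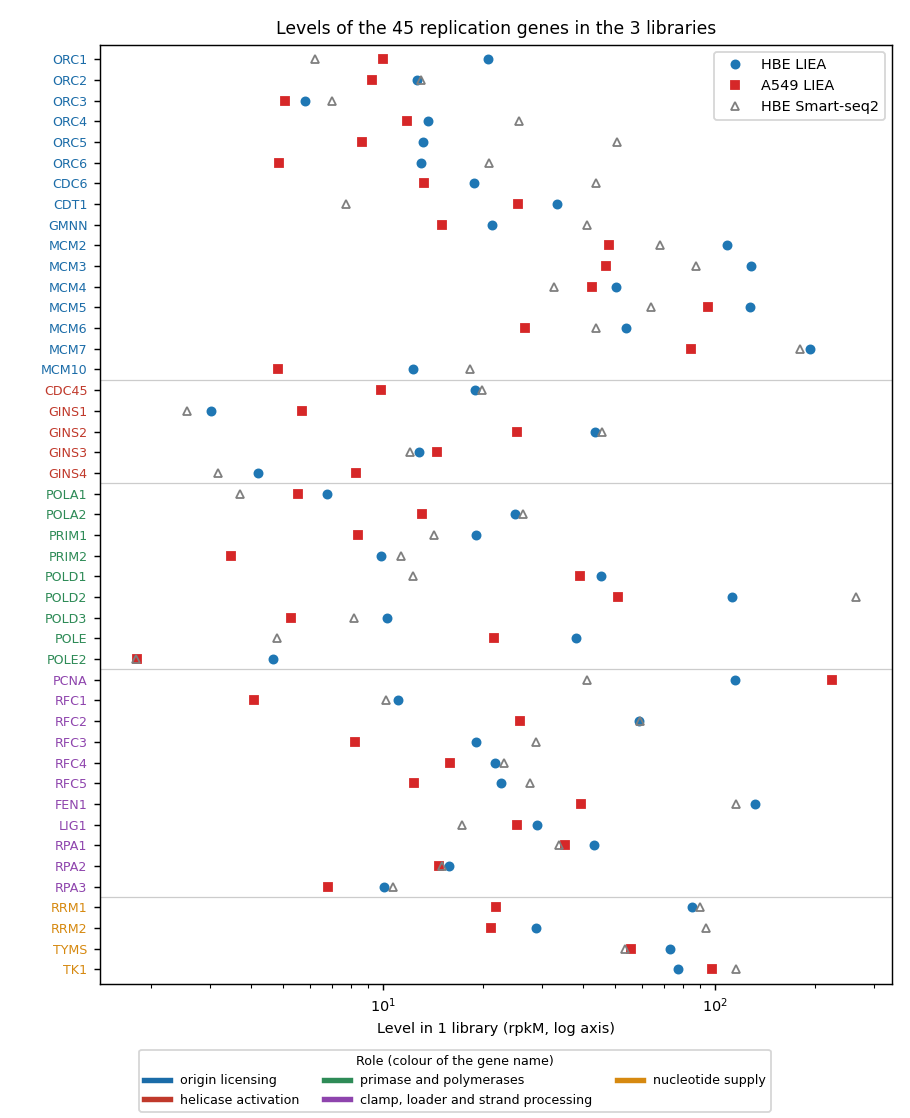
Levels of the 45 replication genes (rpkM, log axis) in HBE LIEA (circles), A549 LIEA (squares) and HBE Smart-seq2 (triangles), 1 library each, with gene names coloured by role. The A549 square lies left of the HBE LIEA circle for 40 of the 45 genes, and PCNA, GINS1 and GINS4 are the clearest exceptions.

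In reads, the members ranged from 40 to 2732 (median 264) in HBE LIEA, from 14 to 1264 (median 140) in A549 LIEA and from 33 to 5650 (median 548) in HBE Smart-seq2. They took 0.541% of all reads in HBE LIEA (0.534 to 0.547), 0.334% in A549 LIEA (0.328 to 0.339) and 0.498% in HBE Smart-seq2 (0.494 to 0.502). The counting interval of the ratio of A549 to HBE LIEA lay below equal levels for 37 members, or 82.2% against 40.3% of all genes. It lay above for 4 members, GINS1, GINS4, PCNA and TK1, or 8.89% against 29.7% of all genes. It included equal levels for ORC3, GINS3, POLA1 and RPA2. Whether an interval excludes equal levels depends on the number of reads, for which all genes were not matched to the members. The interval was wholly beyond the 2-fold limit for 7 of the 16 members, namely MCM2, MCM3, MCM7, MCM10, RFC1, FEN1 and RRM1. The share of all genes with such an interval was not worked out, so this count has no comparison. Just inside the limit were MCM6, ORC1 and POLD2, with log2 ratios of -1.01, -1.06 and -1.14. Just outside were POLA2, CDC45 and POLD3, with -0.93, -0.93 and -0.96.

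The promoters of 5 members are printed to show the sequence around an annotated start of genes on both sides of the comparison. MCM2, MCM6 and MCM7 encode subunits of the helicase and were at least 2-fold lower in A549 LIEA, RRM1 had the lowest ratio of all members, and PCNA had one of the 3 highest. Each run of 300 bases spans 250 bases before to 50 bases after the start of the gene, 5′ to 3′ on the strand of the gene, from RefSeq on GRCh38.p14. Capitals mark the 8-base E2F words TTTCCCGC, TTTGGCGC, TTTCGCGC and TTTGCCGC on either strand.
MCM2 promoter, chr3:127598161-127598460 (plus strand): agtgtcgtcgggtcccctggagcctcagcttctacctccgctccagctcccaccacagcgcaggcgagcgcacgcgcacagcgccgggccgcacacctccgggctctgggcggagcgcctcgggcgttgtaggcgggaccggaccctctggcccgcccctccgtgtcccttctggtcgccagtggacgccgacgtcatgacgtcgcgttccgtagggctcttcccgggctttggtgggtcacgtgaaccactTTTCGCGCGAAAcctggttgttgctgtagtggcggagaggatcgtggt
MCM6 promoter, chr2:135876394-135876693 (minus strand): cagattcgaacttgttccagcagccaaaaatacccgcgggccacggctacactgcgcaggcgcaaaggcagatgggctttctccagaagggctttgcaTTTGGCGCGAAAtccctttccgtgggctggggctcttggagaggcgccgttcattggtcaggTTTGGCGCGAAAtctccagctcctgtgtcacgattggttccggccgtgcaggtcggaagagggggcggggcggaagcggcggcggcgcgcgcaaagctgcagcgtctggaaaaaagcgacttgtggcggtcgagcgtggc
MCM7 promoter, chr7:100101348-100101647 (minus strand): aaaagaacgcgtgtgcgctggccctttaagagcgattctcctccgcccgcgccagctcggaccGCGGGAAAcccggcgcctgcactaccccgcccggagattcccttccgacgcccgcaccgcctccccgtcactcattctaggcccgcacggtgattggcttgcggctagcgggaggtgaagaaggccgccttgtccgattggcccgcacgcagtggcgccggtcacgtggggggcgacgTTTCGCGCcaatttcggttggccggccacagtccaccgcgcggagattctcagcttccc
PCNA promoter, chr20:5126573-5126872 (minus strand): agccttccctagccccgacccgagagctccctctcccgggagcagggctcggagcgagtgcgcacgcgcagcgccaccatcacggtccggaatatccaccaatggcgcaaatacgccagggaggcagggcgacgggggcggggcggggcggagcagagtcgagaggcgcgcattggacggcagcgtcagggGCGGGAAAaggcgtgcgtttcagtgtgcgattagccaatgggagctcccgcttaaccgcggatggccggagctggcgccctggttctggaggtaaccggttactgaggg
RRM1 promoter, chr11:4094435-4094734 (plus strand): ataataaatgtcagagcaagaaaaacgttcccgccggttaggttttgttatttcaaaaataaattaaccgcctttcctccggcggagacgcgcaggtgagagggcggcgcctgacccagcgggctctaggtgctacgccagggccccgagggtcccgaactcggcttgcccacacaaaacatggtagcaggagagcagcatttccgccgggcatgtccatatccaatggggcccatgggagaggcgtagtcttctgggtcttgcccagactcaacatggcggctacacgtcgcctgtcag
In MCM2 the 2 words overlap and begin 2 and 6 bases after the start. In MCM6 the 4 words form 2 overlapping pairs of both strands, the first beginning 152 bases and the second 90 bases before the start. MCM7 had words beginning 187 and 9 bases before the start. The PCNA promoter printed here had 1 word, beginning 59 bases before the start, and that of RRM1 had none of the 4. For MCM7 and PCNA the table holds further starts, with 3 and 2 windows in all, and the windows not printed had 0 E2F words. Which start these cells use was not measured.

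All 16 genes grouped under origin licensing, with MCM10 placed beside the other MCM genes, were lower in A549 LIEA than in HBE LIEA, 7 of them at least 2-fold, with a median log2 ratio of -0.56. Of all genes tested, 56.2% were lower and 19.7% at least 2-fold lower, and the counts by role stand against these shares. Within the MCM2 to MCM7 helicase, the motor that is loaded as a double ring around DNA, 4 of the 6 subunits were at least 2-fold lower, MCM6 only under the deposited scaling and as TPM. MCM7 was the highest of them in HBE, at 192 rpkM in HBE LIEA and 180 in HBE Smart-seq2 against 84.5 in A549 LIEA, 2.28-fold lower in A549 than in HBE by LIEA (2.12 to 2.44). MCM3 was at 129 rpkM in HBE LIEA, 87.2 in HBE Smart-seq2 and 46.7 in A549 LIEA, 2.75-fold lower (2.51 to 3.01). MCM2 was at 108, 68.2 and 47.9 rpkM in the same order, 2.26-fold lower (2.07 to 2.47). For these 3 subunits the A549 library lay below both HBE libraries. MCM6 was at 53.8 rpkM in HBE LIEA, 43.7 in HBE Smart-seq2 and 26.8 in A549 LIEA, 2.01-fold lower (1.79 to 2.26).

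MCM4 and MCM5 differed less. MCM5 was at 127 rpkM in HBE LIEA, 63.9 in HBE Smart-seq2 and 95.3 in A549 LIEA, 1.33-fold lower in A549 than in HBE by LIEA (1.23 to 1.44). MCM4 was at 50.1, 32.8 and 42.5 rpkM in the same order, 1.18-fold lower (1.08 to 1.29). Both thus lay between the 2 HBE libraries, and their order between the cell lines depended on which HBE library was taken. The highest subunit was 3.84 times the lowest in HBE LIEA, MCM7 over MCM4, and 3.56 times in A549 LIEA, where MCM5 was the highest and MCM6 the lowest. MCM10, which is not part of the ring and acts later, when the helicase is activated, is one of the 7 and was at 12.3 rpkM in HBE LIEA, 18.2 in HBE Smart-seq2 and 4.81 in A549 LIEA, 2.56-fold lower (2.01 to 3.28).

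The 6 subunits of the origin recognition complex, which marks origins, were lower in A549 LIEA than in HBE LIEA with log2 ratios between -1.42 and -0.20. ORC6 had the lowest ratio, at 13 rpkM in HBE LIEA, 20.8 in HBE Smart-seq2 and 4.85 in A549 LIEA, 2.68-fold lower (1.80 to 4.08). ORC1 was at 20.7 rpkM in HBE LIEA and 9.95 in A549 LIEA, 2.08-fold lower (1.69 to 2.57), but at 6.25 in HBE Smart-seq2, below A549. For ORC2, ORC3, ORC4 and ORC5 the ratio was within 2-fold, and A549 was below both HBE libraries. A stretch of 957 nt of the longest ORC4 transcript was at least 95% identical to transcripts of other genes, so its reads are uncertain. The interval of ORC4 lay only just below equal levels (log2 -0.43 to -0.003) and rests on reads recovered with a factor of 2. The loading factors CDC6 and CDT1 and the CDT1 inhibitor geminin (GMNN) were lower by 0.50, 0.39 and 0.50 on the log2 scale, with intervals below equal levels. CDC6 was at 18.8 rpkM in HBE LIEA, 43.6 in HBE Smart-seq2 and 13.2 in A549 LIEA, and CDT1 at 33.4, 7.71 and 25.4. CDC6 and CDT1 thus differed more between the 2 methods in HBE than between the cell lines.

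**Figure D2:**
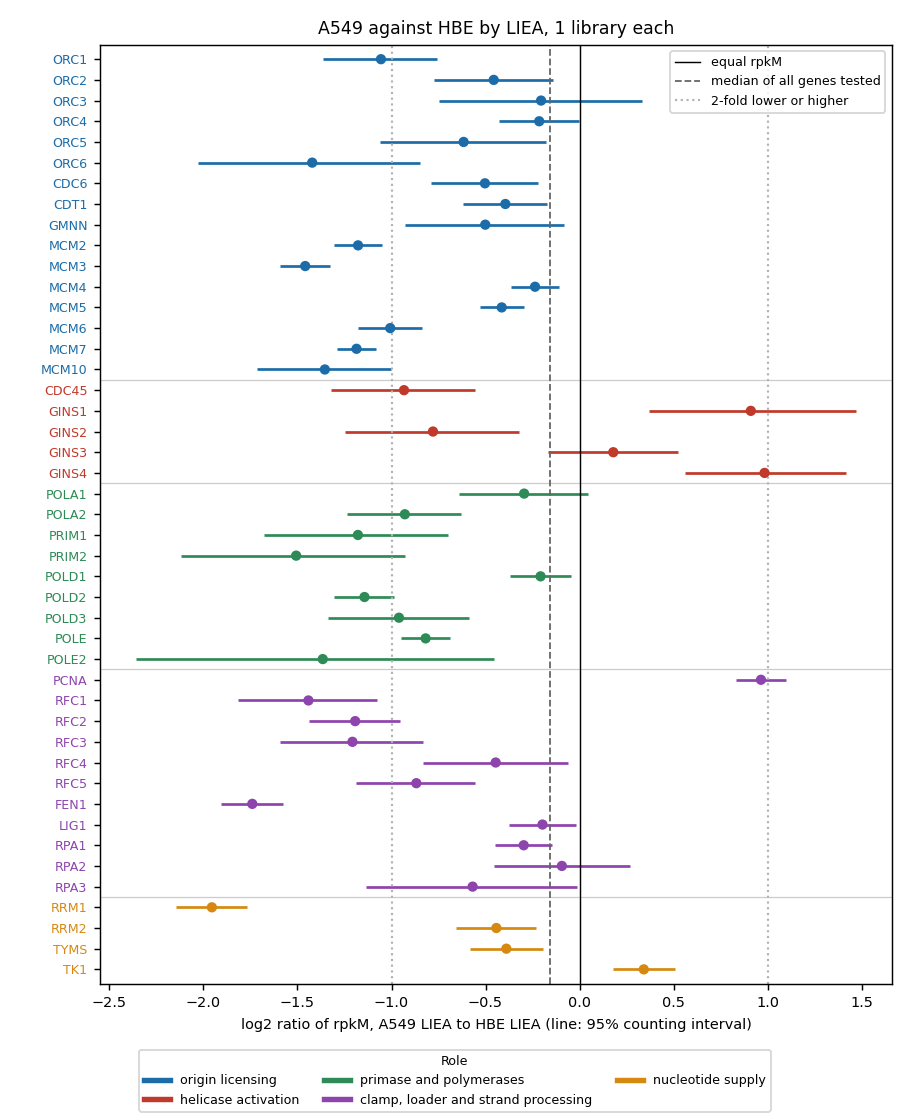
Log2 ratio of rpkM in A549 LIEA to HBE LIEA for each replication gene, coloured by role, with its 95% counting interval, equal levels (solid line), the median of all genes tested (dashed, -0.16) and the 2-fold limits (dotted). All licensing and polymerase members lie left of the solid line, while GINS1, GINS4 and PCNA lie close to the right 2-fold limit.

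The 5 helicase activation genes were split, with 2 lower and 3 higher in A549 LIEA and none beyond 2-fold under the deposited scaling. GINS4 was at 4.18 rpkM in HBE LIEA, 3.17 in HBE Smart-seq2 and 8.27 in A549 LIEA, 1.98-fold higher in A549 than in HBE by LIEA (1.48 to 2.67). GINS1 was at 3.04, 2.56 and 5.71 rpkM in the same order, 1.88-fold higher (1.29 to 2.77). GINS3 was at 12.8, 12 and 14.5 rpkM, with an interval that included equal levels (log2 -0.17 to 0.52). These 3 genes were higher in A549 than in both HBE libraries. The fourth subunit, GINS2, was the most abundant and was lower, at 43.4 rpkM in HBE LIEA, 45.6 in HBE Smart-seq2 and 25.3 in A549 LIEA, 1.72-fold lower (1.25 to 2.37). The transcript length worked out for GINS2, 590 nt, may be too short by a whole factor, on which its reads and this interval depend and its levels do not. The 4 GINS proteins form 1 complex, and the highest of their mRNA levels was 14.3 times the lowest in HBE LIEA, 17.8 times in HBE Smart-seq2 and 4.43 times in A549 LIEA. CDC45, their partner at the helicase, was at 18.9, 19.8 and 9.87 rpkM in the same order, 1.91-fold lower (1.47 to 2.50). The levels of GINS1 and GINS4 rest on few reads, 46 and 74 in HBE LIEA and 78 and 132 in A549 LIEA.

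All 9 members of primase and the polymerases were lower in A549 LIEA, with a median log2 ratio of -0.96. Of these 9, 4 were at least 2-fold lower, against 19.7% of all genes. POLD4, a subunit of polymerase delta outside the member list, was higher, with a log2 ratio of 1.79. The primase subunits PRIM1 and PRIM2, which make the RNA primers, were 2.26-fold (1.62 to 3.20) and 2.84-fold (1.91 to 4.34) lower. PRIM1 was at 19.0 rpkM in HBE LIEA, 14.2 in HBE Smart-seq2 and 8.40 in A549 LIEA. PRIM2 was at 9.86, 11.3 and 3.47 rpkM, and 332 nt of its longest transcript were at least 95% identical to its pseudogene PRIM2BP. No library listed PRIM2BP under this name, and whether its reads were counted to PRIM2 is not known. POLA2, the second subunit of polymerase alpha, was 1.90-fold lower (1.55 to 2.35), while the interval of the catalytic subunit POLA1 included equal levels (log2 -0.64 to 0.05).

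POLD2, a subunit of the lagging strand polymerase delta, was at 113 rpkM in HBE LIEA, 265 in HBE Smart-seq2 and 50.9 in A549 LIEA, 2.21-fold lower (1.98 to 2.47). The catalytic subunit POLD1 was at 45.2, 12.3 and 39.2 rpkM in the same order, 1.15-fold lower (1.03 to 1.29). POLD3 was 1.95-fold lower (1.51 to 2.53). Between the 2 HBE libraries POLD1 was 3.67-fold higher and POLD2 2.36-fold lower in LIEA. The counting intervals of POLD1 and POLD2 for A549 against HBE by LIEA lie apart but cover counting error only. With 1 library per condition, whether these ratios differ cannot be told. POLE, the catalytic subunit of the leading strand polymerase epsilon, was at 38.1 rpkM in HBE LIEA and 21.6 in A549 LIEA, 1.76-fold lower (1.61 to 1.93), but at 4.77 in HBE Smart-seq2. POLE2 was the lowest member in A549, at 1.81 rpkM and 14 reads. It was at 4.67 rpkM and 40 reads in HBE LIEA, 2.58-fold lower in A549 with a wide interval (1.37 to 5.13). In HBE Smart-seq2 POLE2 was at 1.80 rpkM, level with A549, so its lower level in A549 held only against HBE LIEA.

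Of the 11 genes of the clamp, its loader and strand processing, 10 were lower in A549 LIEA and PCNA was higher. PCNA, the ring that tethers polymerases to DNA, was at 115 rpkM and 718 reads in HBE LIEA, 41.1 rpkM and 548 reads in HBE Smart-seq2, and 225 rpkM and 1264 reads in A549 LIEA. It was 1.95-fold higher in A549 than in HBE by LIEA (1.78 to 2.14). PCNA was the member with the highest level in A549, where it made up 17.6% of the summed rpkM of the 45 genes, against 5.99% in HBE LIEA and 2.19% in HBE Smart-seq2. Without it the sum was 1806 rpkM in HBE LIEA, 1049 in A549 LIEA and 1834 in HBE Smart-seq2, so the 2 HBE libraries were close in this sum and A549 LIEA was 1.72-fold below HBE LIEA. The PCNA gene lies on chr20:5095599-5107272 (GRCh37, minus strand) and shares no exon with another annotated gene.

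The 5 subunits of replication factor C, which opens PCNA and loads it onto DNA, went the other way, with a median log2 ratio of -1.19. RFC1 was at 11.1 rpkM in HBE LIEA, 10.2 in HBE Smart-seq2 and 4.08 in A549 LIEA, 2.72-fold lower in A549 than in HBE by LIEA (2.11 to 3.53). RFC2 was at 59.0, 59.2 and 25.8 rpkM in the same order, 2.29-fold lower (1.94 to 2.71). RFC3 was 2.31-fold (1.78 to 3.02), RFC5 1.83-fold (1.47 to 2.28) and RFC4 1.36-fold lower (1.05 to 1.78). A549 lay below both HBE libraries for all 5 subunits. RFC4 shares an exon with EIF4A2 on the other strand, and whether the counting used the strand is not given in the sources used here.

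FEN1, the nuclease that trims the flaps of Okazaki fragments, had the second lowest ratio of all members. It was at 132 rpkM in HBE LIEA, 115 in HBE Smart-seq2 and 39.5 in A549 LIEA, 3.34-fold lower (2.98 to 3.75). FEN1 lies on chr11:61560383-61564710 (GRCh37, plus strand), and 1150 nt of its transcript were at least 95% identical to its pseudogene FEN1P1. No library listed FEN1P1 under this name, and whether its reads were counted to FEN1 is not known. LIG1, the ligase that then seals the fragments, was at 29.0, 17.3 and 25.3 rpkM in the same order, 1.15-fold lower (1.01 to 1.30) and between the HBE libraries. The single-strand binding proteins RPA1, RPA2 and RPA3 had log2 ratios of -0.30, -0.09 and -0.57. RPA2 was at 15.8, 15 and 14.8 rpkM in HBE LIEA, HBE Smart-seq2 and A549 LIEA, and its direction turned when ratios were centred on the median of all genes or when the 100 genes with most reads were left out of the totals.

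The 4 genes of nucleotide supply held the lowest ratio and 1 of the 5 higher genes. RRM1, the large subunit of ribonucleotide reductase, was at 84.8 rpkM and 1247 reads in HBE LIEA, 90.2 rpkM and 2835 reads in HBE Smart-seq2, and 21.9 rpkM and 290 reads in A549 LIEA. It was 3.88-fold lower in A549 than in HBE by LIEA (3.41 to 4.42), and the 2 HBE libraries differed by a log2 ratio of -0.09 (-0.19 to 0.01). Only 6.52% of all genes tested had a lower ratio than RRM1. Its partner RRM2, the small subunit, was at 28.8 rpkM in HBE LIEA, 93.6 in HBE Smart-seq2 and 21.2 in A549 LIEA, 1.36-fold lower (1.17 to 1.58). RRM2 was 3.25-fold lower in LIEA than in Smart-seq2 of the same cell line. The counting intervals of the 2 subunits lie apart but cover counting error only. With 1 library per condition, whether the subunits differ in their ratio cannot be told. RRM1 lies on chr11:4115937-4160162 (GRCh37, plus strand) and has the antisense gene RRM1-AS1.

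Thymidylate synthase (TYMS), which makes dTMP from dUMP, was at 73.1 rpkM in HBE LIEA, 53.4 in HBE Smart-seq2 and 55.8 in A549 LIEA, 1.31-fold lower (1.14 to 1.5). Its exons overlap those of ENOSF1 and TYMSOS on the other strand. Thymidine kinase 1 (TK1), which salvages thymidine, was at 77.2, 116 and 97.8 rpkM in the same order, 1.27-fold higher in A549 than in HBE by LIEA (1.13 to 1.42) but below HBE Smart-seq2. In all, 4 of the 45 members, POLA2, PRIM1, PRIM2 and POLD1, shared an exon with another gene on the same strand and 16 with a gene on the other strand, by GENCODE on GRCh37. Such partners that were listed in these libraries were AP4M1 for MCM7, GSE1 for GINS2, HSD17B6 for PRIM1 and ACVR2A and MBD5 for ORC4, beside those of RFC4 and TYMS.

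**Figure D3:**
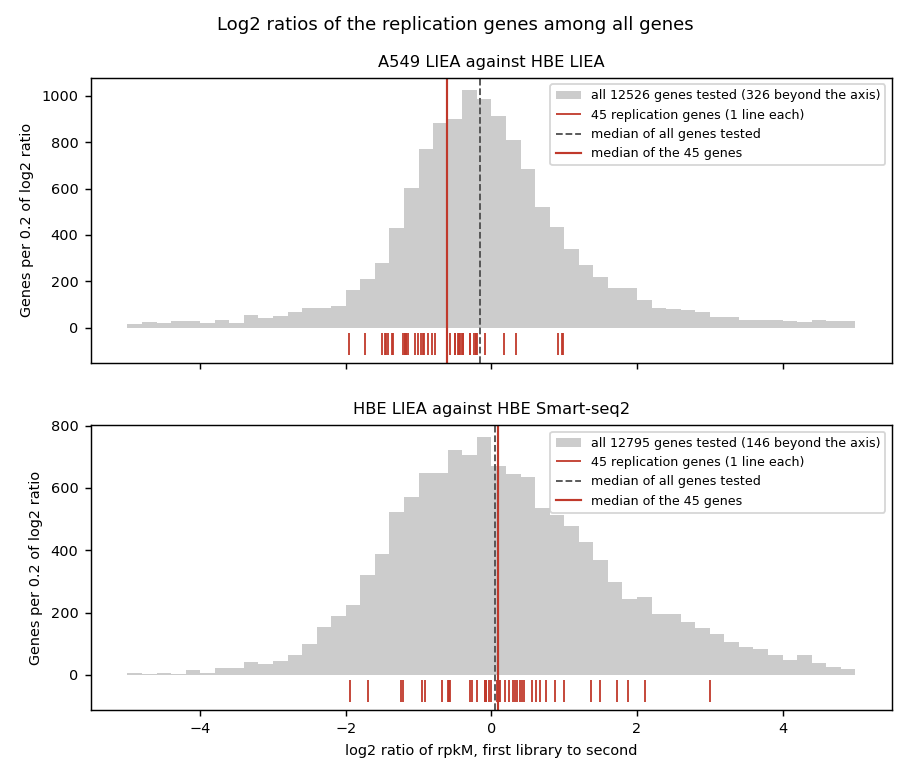
Log2 ratios of the 45 replication genes (red ticks) under the distribution over all genes tested (grey, genes per bin of 0.2), for A549 LIEA against HBE LIEA (top) and HBE LIEA against HBE Smart-seq2 (bottom). In the top panel the median of the members (-0.62) lies left of that of all genes (-0.16), and in the bottom panel the medians (0.09 and 0.05) lie close together.

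The 2 HBE libraries served as a check of the method on the same cell line. The median log2 ratio of HBE LIEA to HBE Smart-seq2 was 0.09 over the members and 0.05 over all 12795 genes tested. At least 2-fold higher in LIEA were 6 members, or 13.3% against 27.9% of all genes, and at least 2-fold lower were 4 members, or 8.89% against 21.4%. The other 35 members, or 77.8%, were within 2-fold. These shares, too, were not matched for level, so they do not show that the methods differ less for the members. The widest differences were those of POLE, 7.98-fold higher in LIEA, CDT1, 4.33-fold higher, POLD1, 3.67-fold higher, ORC1, 3.31-fold higher, ORC5, 3.83-fold lower, and RRM2, 3.25-fold lower. POLE2 and PCNA were also at least 2-fold higher in LIEA, and CDC6 and POLD2 at least 2-fold lower. Of the 16 members at least 2-fold lower in A549 LIEA than in HBE LIEA, ORC1, POLE2 and POLD2 were thus beyond 2-fold between the HBE libraries and the other 13 were within it.

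The differences between the methods ran in part with the GC content and the length of the transcripts. Over the 45 genes, whose longest annotated transcripts held 35.2% to 64.3% GC, the rank correlation of GC content with the ratio of LIEA to Smart-seq2 was 0.37. That of transcript length with the same ratio was 0.29, and POLE had the longest transcript, at 8005 nt. The 9 members with at least 55% GC, among them POLE, CDT1 and POLD1, had a median log2 ratio of 0.75, and the 9 members below 42% GC had a median of -0.20. All genes of these classes had medians of 0.83 and -0.60. With the ratio of A549 to HBE, both by LIEA, the rank correlation of GC content was 0.046 over the same 45 genes. The points share their libraries, so these correlations are descriptions. The parts of GC content and transcript length in the differences between methods were not tested.

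**Figure D4:**
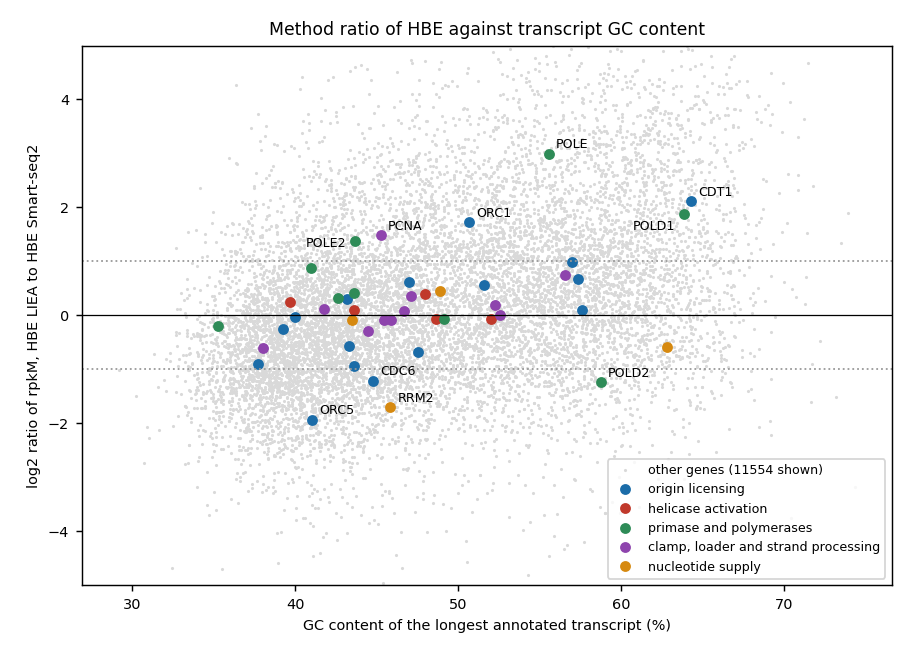
Log2 ratio of rpkM in HBE LIEA to HBE Smart-seq2 against the GC content of the longest annotated transcript (%), for the 45 replication genes coloured by role and for other genes (grey); the 10 members beyond 2-fold (dotted lines) are named. POLE, CDT1 and POLD1 lie at the upper right, and ORC5 and RRM2 lie low at a GC content below 50%.

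When A549 LIEA was set against HBE Smart-seq2, across both cell line and method, 18 members were at least 2-fold lower, or 40% against 29.2% of all genes. The 6 members that were at least 2-fold higher, CDT1, GINS1, GINS4, POLD1, POLE and PCNA, made up 13.3% against 30.6% of all genes. This comparison shares the A549 library with the one by LIEA, so it adds the HBE Smart-seq2 values and is no second sample of A549. Lower in A549 than in both HBE libraries were 29 members, or 64.4% against 37.9% of 12312 genes. At least 2-fold lower than in both were 10 members, or 22.2% against 12%, namely ORC6, MCM7, MCM10, PRIM2, POLD2, RFC1, RFC2, RFC3, FEN1 and RRM1. Higher than in both were GINS1, GINS3, GINS4 and PCNA, or 8.89% against 31.8%. The other 12 members lay between the 2 HBE libraries, among them ORC1, MCM4, MCM5, POLE, TYMS and TK1.

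The order of the members within a library was much the same in both cell lines. MCM7 was the highest member in HBE LIEA, PCNA in A549 LIEA and POLD2 in HBE Smart-seq2. The lowest were GINS1 in HBE LIEA, at 3.04 rpkM, and POLE2 in A549 LIEA and HBE Smart-seq2, at 1.81 and 1.80 rpkM. The rank correlation of the levels over the 45 genes was 0.93 between the 2 LIEA libraries and 0.80 between the 2 HBE libraries. The points share the length of each gene, and the correlations are descriptions.

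Promoters of 39 of the 45 members were found in the RefSeq table, some with more than 1 start. MCM4, MCM5, GINS4, POLD3, RPA2 and RPA3 were not among them. A gene was counted as having a word when any of its windows held it. At least 1 of the E2F words stood in the promoters of 19 of the 39 members, or 48.7%, against 3.99% of all 27305 genes of the table and 5.82% of the 12772 of these listed in any library. The word CCAAT, on either strand, stood in 61.5% of the members, 39.7% of all genes and 42.2% of the listed genes. GGGCGG stood in 74.4% of the members, 48.3% of all genes and 70% of the listed genes, so that its share in the members was near that of listed genes. TTTGAA, the core of the element bound by the DREAM complex in genes of the G2 and M phases, stood in 2.56% of the members, that is in RRM1, in 18.2% of all genes and in 14.8% of the listed genes. The 19 members with a word had a median log2 ratio of -0.50, with 16 lower and 6 at least 2-fold lower, from -1.46 for MCM3 to 0.96 for PCNA. The 20 members without one had a median of -0.99, with 19 lower and 10 at least 2-fold lower, from -1.96 for RRM1 to 0.34 for TK1. The difference between these sets of members was not tested. By role, a word stood in 8 of 14 licensing genes, 3 of 4 helicase activation genes, 4 of 8 primase and polymerase genes, 3 of 9 genes of the clamp, loader and strand processing, and 1 of 4 genes of nucleotide supply.

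Other genes of replication and the cell cycle were taken by list. The counts are to be read against all genes, of which 56.2% were lower, 19.7% at least 2-fold lower and 17% at least 2-fold higher. Of 12 regulators of licensing and firing, 10 were lower in A549 LIEA than in HBE LIEA, 5 of them at least 2-fold, and 1 was at least 2-fold higher, with a median log2 ratio of -0.63. MTBP, which helps to fire origins, had a ratio of -2.06 on 51 and 11 reads, and CDC7, the kinase that activates the loaded helicase, one of -1.86. The 1 higher gene was MCM8, a helicase relative that acts in repair, at 1.34. Of 21 fork protection and accessory factors, 16 were lower, 11 of them at least 2-fold, with a median of -1.02. DSCC1 and CHTF18, which act in clamp loading, had the lowest ratios at -2.59 and -2.01, while 5 of the 21 factors were higher. The 1 gene at least 2-fold higher was POLD4, the small subunit of polymerase delta, at 1.79. POLD4 was at 32.1 rpkM in HBE LIEA, 34.8 in HBE Smart-seq2 and 111 in A549 LIEA.

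All 13 genes of chromatin assembly and maintenance methylation, whose products package and methylate new DNA, were lower, 7 of them at least 2-fold, with a median of -1.14. UHRF1, which brings the maintenance methyltransferase to new DNA, was at 90.5 rpkM in HBE LIEA, 44.3 in HBE Smart-seq2 and 22.2 in A549 LIEA, a log2 ratio of -2.03 by LIEA. Of 16 further genes of nucleotide supply, 10 were lower and 6 higher, with a median of -0.40. At least 2-fold lower were 3 and at least 2-fold higher none. The counts of lower genes were near the shares of all genes, 56.2% by any amount and 19.7% at least 2-fold. SAMHD1, which degrades dNTPs, had the lowest ratio at -1.82, and DCK, which salvages deoxycytidine, followed at -1.41.

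Of 30 genes of the E2F factors, pocket proteins and G1/S cyclins tested, 20 were lower and 10 higher, with a median of -0.49. At least 2-fold lower were 9 and at least 2-fold higher 3, against 19.7% and 17% of all genes. SKP2, which targets cell cycle inhibitors for degradation, had a ratio of -3.28, and CDC25A, a phosphatase that activates CDK2, one of -2.84. SKP2 was at 28.1 rpkM in HBE LIEA, 36.6 in HBE Smart-seq2 and 2.89 in A549 LIEA. The 3 genes at least 2-fold higher were E2F6 at 1.18, LIN37 at 2.16 and cyclin D3 (CCND3) at 2.72. CCND3 was at 29.4, 32.6 and 194 rpkM in the same order. CCND2 was not listed in A549 LIEA, against 925 reads in HBE LIEA and 1639 in HBE Smart-seq2, and was not among the 30 genes.

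Of 16 general proliferation markers, 15 were lower, against 56.2% of all genes. Their median of -0.63 was close to that of the replication genes. Only 2 of the 16 were at least 2-fold lower, against 19.7% of all genes and 35.6% of the members. CDC20, an activator of the anaphase promoting complex, had the lowest ratio at -1.32, and BUB1B, of the spindle checkpoint, followed at -1.28. Of 14 reference genes, 10 were lower and 4 higher, with 3 at least 2-fold lower and a median of -0.15, close to that of all genes. SDHA, a subunit of succinate dehydrogenase, had the lowest ratio at -1.46. By direction and median the proliferation markers were thus lower together with the replication genes, but not by the 2-fold count. Their part in the difference was not tested.

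**Figure D5:**
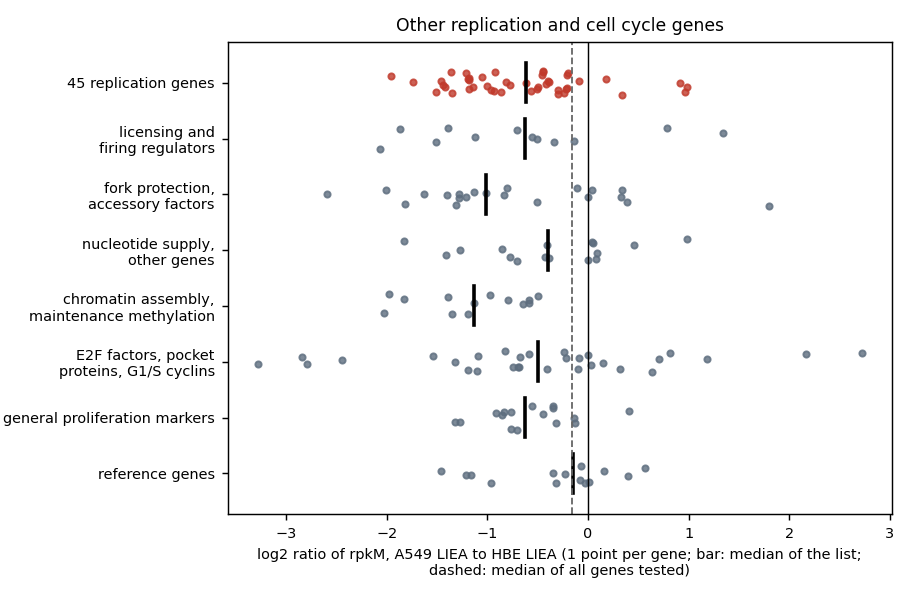
Log2 ratio of rpkM in A549 LIEA to HBE LIEA, 1 point per gene, for the 45 replication genes (red) and 7 other lists of genes (grey), with the median of each list (bar) and of all genes tested (dashed). The bars of the replication genes (-0.62), licensing regulators (-0.63) and proliferation markers (-0.63) lie close together, and that of chromatin assembly genes (-1.14) is the lowest.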

How the data were processed

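The measurements are mRNA levels of 3 libraries, HBE LIEA, A549 LIEA and HBE Smart-seq2, grouped by the cell line and library construction in the labels. The authors kept long and high quality Ion Torrent reads, aligned them to human RefSeq-RNA by FANSe2, took all variants of a gene together and deposited its log2 rpkM without a pseudocount. Genes without reads are not listed. The submitters' processing notes name hg19. The mapping allowed more errors for Ion Torrent than for Illumina reads.

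The rpkM is the power of 2 of the deposited value. Reads were recovered from the values, because rpkM is reads divided by transcript length and total. All 18856 genes gave whole reads (within 1e-06 reads plus 6e-09 of the reads), and the recovered reads sum to 100.4%, 100.3% and 101% of the totals. Why these sums exceed the totals was not worked out. Reads and length share a whole factor from 1 to 12, set by GENCODE 44 transcript lengths and above 1 for 1799 genes. Tested on simulated data for 18345 genes, the recovery gave all 3 totals, 96.32% of genes exactly and 43 of 45 members exactly. The simulated reads were drawn from the recovered lengths, so this cannot show whether the factors chosen for the real data are right. The intervals and the filter use the recovered reads, and the ratios use the deposited values. The 4 rows with repeated, date-like names in each library and the 1589 rows without a gene name in Smart-seq2 were left out.

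Each ratio is a difference of log2 rpkM, with a Clopper-Pearson interval on the share of the reads of both libraries. No test was made, as there is 1 library per condition. The members, the lists and the rule for named genes (all 45 members by role, and at most the 2 genes with the largest absolute log2 ratio of each other list) were chosen with earlier results of these data known. CCND2, which was not tested, and MCM8, POLD4, E2F6, LIN37 and CCND3, which make up counts of at most 3 genes, are named besides and were chosen after their values were seen. The alternatives were other scalings, filters, pseudocount, fold limits and HBE library. Sequence identity was searched with blastn 2.17.0 (at least 95% over at least 300 nt). Computations ran in Python 3.11.15 with pandas 2.3.3, numba 0.67.0, numpy 2.4.6, scipy 1.17.1 and matplotlib 3.10.9.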

Additional observations from a re-analysis of the deposited data

How the results depend on the processing

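Of 60 alternative values, 48 kept their direction and stayed within 1.5 times the count or within the interval of the median or sum, 11 moved and 1 reversed. Against the 0 members at least 2-fold higher in A549 LIEA than in HBE LIEA, there were 3 when ratios were centred on the median of all genes, 3 when the 100 genes with most reads were left out of the totals (GINS1, GINS4 and PCNA in both), 3 at a fold of 1.5 and 6 with HBE Smart-seq2 as the HBE library. The 16 members at least 2-fold lower became 2 at a fold of 3. Centring raised each ratio by 0.16 on the log2 scale, and leaving out the top genes raised it by 0.11. The summed level of A549 LIEA over HBE LIEA, 0.663, was 0.594 as TPM, 0.714 without the 100 genes and 0.679 with HBE Smart-seq2. The median log2 ratio of HBE LIEA to HBE Smart-seq2, 0.09, was -0.0070 without the 100 genes, which shift this ratio by -0.098. The 6 members at least 2-fold higher in HBE LIEA than in HBE Smart-seq2 became 11 at a fold of 1.5, and the 4 lower ones became 8 at a fold of 1.5 and 2 at a fold of 3. Fewer or more calls at another fold follow from the limit itself.

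No paired analysis was possible because no condition had more than 1 library. For the same reason no library could be left out, and the differences between libraries of 1 condition are unknown. Using the lowest read numbers that are whole for every library, a setting added once the data had been seen, left all 6 counts and medians of the 2 comparisons as they were. This does not cover the counting intervals, which depend on the read numbers. Depth limits POLE2, PRIM2 and ORC6 most, with 14, 33 and 34 reads in A549 LIEA.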
